A study of Homo sapiens with 12 samples.

Results

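The genes described are 4 of retinoid metabolism (RDH10, RDH5, RDH11 and LRAT) and SERPINF1, which encodes pigment epithelium-derived factor (PEDF). They were taken by symbol, through their Ensembl identifiers, and make up 5 of the 60708 genes in the files; all 5 were among the 15388 genes abundant enough to test. The cells were hTERT RPE-1, a human line derived from retinal pigment epithelium and immortalised with telomerase. Messenger RNA libraries were made from 4 clonal lines. LmnB1_6 and LmnB1_16 overexpressed lamin B1, a protein of the filament meshwork under the nuclear envelope, fused to the red fluorescent protein mCherry, and mCherry_4 and mCherry_3 overexpressed mCherry alone. Every line had been given doxycycline (0.05 ug/mL for 24 hours) and was grown with hygromycin B, so no group lacked either agent. Each clone gave 3 libraries called biological replicates. Each construct is thus seen through 2 clones, and 3 libraries of 1 clone share whatever that clone carries. The p-values below measure the spread between these libraries, and 2 clones against 2 allow no exact permutation p (two-sided) below 0.333.

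The retinoid cycle returns light-isomerised vitamin A from photoreceptors to its light-sensitive form, and in the eye much of it runs in the pigment epithelium. LRAT stores retinol as esters, the isomerase RPE65 turns the esters into 11-cis-retinol, and retinol dehydrogenases such as RDH5 and RDH11 oxidise this to 11-cis-retinal. RDH10 oxidises all-trans-retinol, the first step towards retinoic acid, while PEDF is a secreted, non-inhibitory serpin that the pigment epithelium releases and that is known for neurotrophic and anti-angiogenic activity.

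RDH10 was the member that set both LmnB1 clones apart from both mCherry clones, at about 2 times the level. It differed less, 1.21-fold, between the LmnB1 clones. LRAT and RDH5 fell and SERPINF1 rose in the comparison of the constructs, but each lost its call when the clone LmnB1_6 was left out. LRAT and SERPINF1 also differed both between the LmnB1 clones and between the mCherry clones. RDH11, the most abundant member, did not pass the test between the constructs and was lowest in LmnB1_6. Of the 5 members 4 passed the test between constructs, 2 of them upwards and 2 downwards, where 17.8% of all tested genes were called, 8.58% higher and 9.25% lower. Called means an adjusted p under 0.05 (Benjamini-Hochberg, over all tested genes) in the quasi-likelihood test of edgeR.

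The libraries held 20.6 to 29.5 M estimated counts each, with 2.06% to 2.69% from mitochondrial genes. LMNB1, the gene carried by the fusion, stood at 3976 ± 164 and 3374 ± 273 CPM (counts scaled to library size) in LmnB1_6 and LmnB1_16, against 161 ± 7.29 and 85.0 ± 7.12 CPM in mCherry_4 and mCherry_3 (SD, n = 3 each), and every LmnB1 library lay above every mCherry library. The label of the tissue was matched by its defining genes only in part. Of 16 pigment epithelium markers, RPE65, TTR, TYR and DCT had 0 counts in every library, which allows up to 0.102 to 0.146 CPM in a library (3 counts), and 5 others were too low to test. The list summed to 620 to 1034 TPM (levels scaled to library size and transcript length) in LmnB1 libraries and 957 to 1603 TPM in mCherry libraries, and this was mostly the keratins KRT8 and KRT18. The transcription factor genes MITF and OTX2 were detected in LmnB1_16, mCherry_4 and mCherry_3 but were at or near 0 in LmnB1_6 (values below), and PMEL and MERTK were detected in every clone, at 0.815 to 4.54 and 2.64 to 6.87 CPM. The cells are called hTERT RPE-1 here and not pigment epithelium.

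The sequences upstream of 3 members are shown so that the starts of RDH5 and LRAT, which fell, can be set beside that of RDH11, which was not called: 3 of the 5 had an entry among the RefSeq promoters (GRCh38.p14), each read from base 250 to base 51 before the RefSeq start on the strand of the gene. The positions are chr12:55720143-55720342 (plus strand) for RDH5, chr14:67695815-67696014 (minus strand) for RDH11 and chr4:154743750-154743949 (plus strand) for LRAT. The window of LRAT lies inside the annotated span of the gene (154626945 to 154753118). It is thus not upstream of every one of the 8 annotated transcripts that its counts cover. Capitals mark matches on either strand to 6 motifs, chosen after the sequences were seen. For MITF these were the E-box, CACGTG, and the core of the M-box, written CATGTG. For OTX2 it was the homeodomain core, which reads TAATCC. The others were a nuclear receptor recognition unit, spelled AGGTCA, the GC box of Sp factors, given by GGGCGG, and the TATA box, searched as TATAAA. The windows end at base 51 before the start, so motifs nearer to it, a TATA box included, were not searched for.
RDH5: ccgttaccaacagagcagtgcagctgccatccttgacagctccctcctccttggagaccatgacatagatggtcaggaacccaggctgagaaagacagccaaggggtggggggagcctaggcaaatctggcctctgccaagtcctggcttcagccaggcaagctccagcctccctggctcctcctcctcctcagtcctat
RDH11: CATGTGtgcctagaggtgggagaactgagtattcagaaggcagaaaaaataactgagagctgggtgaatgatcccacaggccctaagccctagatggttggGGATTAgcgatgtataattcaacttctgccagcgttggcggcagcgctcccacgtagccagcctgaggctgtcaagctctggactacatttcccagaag
LRAT: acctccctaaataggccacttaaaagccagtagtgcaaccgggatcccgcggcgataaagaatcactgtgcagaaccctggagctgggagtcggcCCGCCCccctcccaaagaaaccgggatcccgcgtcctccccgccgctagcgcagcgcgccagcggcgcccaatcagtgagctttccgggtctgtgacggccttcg

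In these windows RDH11 held CATGTG at its upstream end (−250 to −245) and TAATCC on the other strand (−149 to −144), LRAT held GGGCGG on the other strand (−155 to −150), and RDH5 held none of the 6 motifs. Among 35116 RefSeq promoters, the same window held CATGTG in 7.48%, TAATCC in 4.61%, GGGCGG in 35% and, of the motifs not found in these members, CACGTG in 4.51%, AGGTCA in 9.67% and TATAAA in 7.63%. Bases G and C made up 59.5% of the window of RDH5, 52% of RDH11 and 64% of LRAT, beside a median of 57.5% over all promoters.

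RDH10 (ENSG00000121039.10, chromosome 8, 73294612 to 73325281, plus strand, GRCh38) had 34.0, 32.2 and 33.6 CPM in LmnB1_6 and 25.3, 29.3 and 27.9 CPM in LmnB1_16, against 14.4, 13.3 and 14.4 CPM in mCherry_4 and 16.02, 13.8 and 15.2 CPM in mCherry_3. Every LmnB1 library lay above every mCherry library. RDH10 was the 1 member of 5 without overlap between the constructs, where 8.66% of all tested genes had none. The mean was 30.4 ± 3.47 CPM in LmnB1 libraries and 14.5 ± 0.973 CPM in mCherry libraries (SD, n = 6 each), a 2.1-fold difference (log2 fold change 1.07, SE 0.08, edgeR adjusted p = 1.36e-05).

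**Figure D1:**
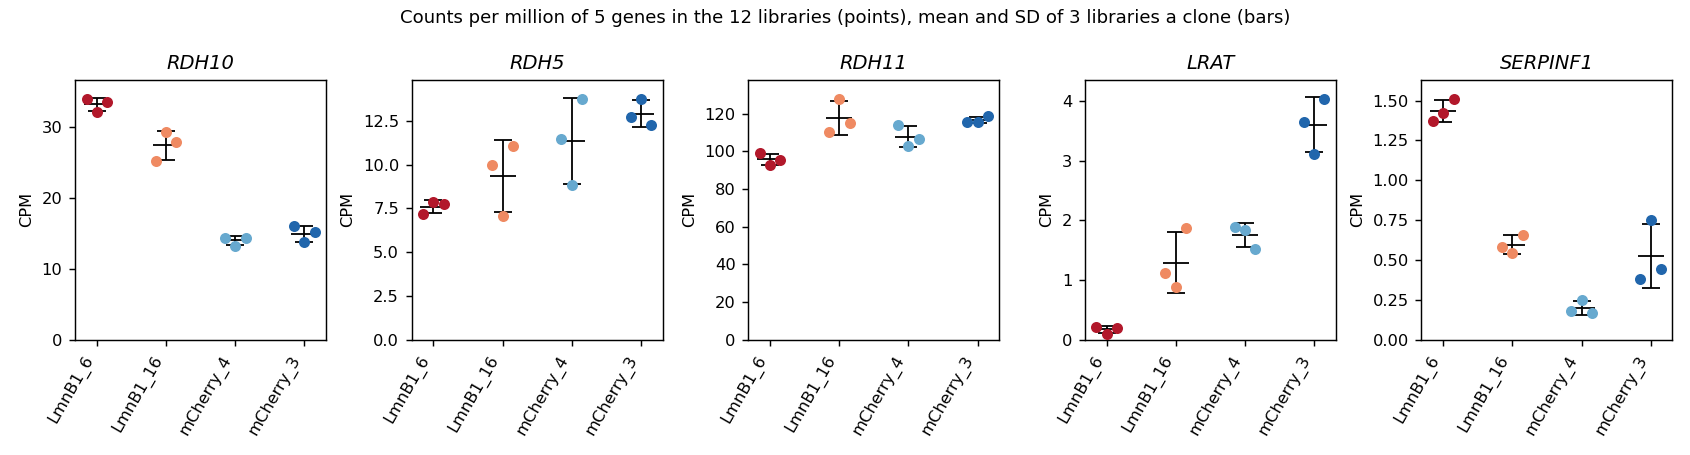
Level of each gene in CPM (linear axes from 0) in the 12 libraries: points are libraries, bars the mean and SD of the 3 libraries of a clone, with the LmnB1 clones left of the mCherry clones. RDH10 separates the constructs (25.3 to 34.0 against 13.3 to 16.02 CPM), while LRAT is lowest in LmnB1_6 and highest in mCherry_3, and SERPINF1 is highest in LmnB1_6 and lowest in mCherry_4.

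RDH10 also rose in every one of the 4 pairings of an LmnB1 clone and an mCherry clone. Against mCherry_4 the log2 fold change was 1.25 (SE 0.09) in LmnB1_6 and 0.97 (SE 0.09) in LmnB1_16, and against mCherry_3 it was 1.15 (SE 0.08) in LmnB1_6 and 0.88 (SE 0.08) in LmnB1_16, with edgeR adjusted p between 5.01e-09 and 5.67e-07. RDH10 was the 1 member called the same way in all 4 contrasts, where 4.68% of all tested genes were. Differences within a construct were smaller: RDH10 was 1.21-fold higher in LmnB1_6 than in LmnB1_16, a log2 difference of 0.28 (SE 0.08, edgeR adjusted p = 0.0143), and mCherry_4 against mCherry_3 gave −0.10 (SE 0.09, edgeR adjusted p = 0.43). Without replicate 1 of LmnB1_16, the difference between the LmnB1 clones was 0.22 and not called (edgeR adjusted p = 0.0775).

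The call of RDH10 between the constructs held with any 1 clone left out (log2 fold change 0.93 to 1.20) and in limma with clone as a random effect (1.07, SE 0.15, limma adjusted p = 0.00317). With counts summed to 1 value per clone the difference was the same size (1.07, SE 0.16) but was not called (edgeR adjusted p = 0.778), in a fit that called 0 of all genes, had 642 at an unadjusted p under 0.05 and gave no adjusted p below 0.261. The ribosomal protein gene RPL7 lies on the other strand within the span of RDH10 but shares no exonic base with it, and the antisense gene RDH10-AS1, which shares 278 of its 5321 exonic bases, had 25 counts in all 12 libraries.

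RDH5 (ENSG00000135437.10, chromosome 12, 55720367 to 55724705, plus strand), the 11-cis-retinol dehydrogenase mutated in fundus albipunctatus, ran the other way. It had 7.20, 7.88 and 7.72 CPM in LmnB1_6 and 9.96, 7.06 and 11.1 CPM in LmnB1_16, against 11.46, 8.85 and 13.7 CPM in mCherry_4 and 12.7, 13.8 and 12.3 CPM in mCherry_3. The libraries of LmnB1_6 lay below all 6 mCherry libraries, while those of LmnB1_16 overlapped mCherry_4. RDH5 fell to 8.48 ± 1.64 CPM in LmnB1 libraries, against 12.1 ± 1.83 CPM in mCherry libraries (SD, n = 6 each; log2 fold change −0.51, SE 0.14, edgeR adjusted p = 0.0291).

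By clone, RDH5 was lower in LmnB1_6 than in mCherry_4 (log2 fold change −0.58, SE 0.17, edgeR adjusted p = 0.0115) and mCherry_3 (−0.76, SE 0.16, edgeR adjusted p = 0.000892). LmnB1_16 was lower than mCherry_3 (−0.46, SE 0.16, edgeR adjusted p = 0.0304), and against mCherry_4 its difference was −0.27, with an approximate 95% interval of −0.59 to 0.05 (edgeR adjusted p = 0.324). The contrast of the LmnB1 clones was not called (−0.31, SE 0.17, edgeR adjusted p = 0.178), except without replicate 2 of LmnB1_16 (−0.47, edgeR adjusted p = 0.03), and neither was that of the mCherry clones (−0.19, SE 0.16, edgeR adjusted p = 0.39). The contrast with mCherry_4 lost its call in LmnB1_6 without replicate 3 of mCherry_4 (−0.42, edgeR adjusted p = 0.0758). That of LmnB1_16 with mCherry_3 lost it without replicate 2 of LmnB1_16 (−0.29) or replicate 1 or 2 of mCherry_3 (−0.47 and −0.41). The call of RDH5 between the constructs ended without any 1 library of LmnB1_6 or of mCherry_3, or without replicate 3 of mCherry_4, at log2 fold changes of −0.47 to −0.51 and edgeR adjusted p of 0.0519 to 0.069. It also ended without the clone LmnB1_6 (−0.37, edgeR adjusted p = 0.198) or mCherry_3 (−0.41, edgeR adjusted p = 0.24), and in limma with clone as a random effect (−0.49, SE 0.29, limma adjusted p = 0.452).

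The reads of RDH5 are shared with a readthrough gene: BLOC1S1-RDH5 starts in its upstream neighbour BLOC1S1 and covers 2035 of the 2983 exonic bases of RDH5, so how the counts divide between them is uncertain. BLOC1S1-RDH5 itself stood at 3.999 ± 0.568 CPM in LmnB1_6 and 6.24 ± 0.905 CPM in LmnB1_16, against 7.19 ± 0.604 CPM in mCherry_4 and 7.49 ± 0.790 CPM in mCherry_3 (SD, n = 3 each; constructs: log2 fold change −0.52, SE 0.17, edgeR adjusted p = 0.0515). Against mCherry_4 and mCherry_3, BLOC1S1-RDH5 was called lower in LmnB1_6 (−0.85 and −0.91) and was not called in LmnB1_16 (−0.21 and −0.26). The counts of both genes together, an alternative chosen after the data were seen, averaged 13.6 ± 2.46 CPM in LmnB1 libraries and 19.5 ± 1.83 CPM in mCherry libraries (SD, n = 6 each; −0.52, SE 0.12, edgeR adjusted p = 0.0134). Summed, the pair was also lower in LmnB1_6 than in LmnB1_16 (−0.43, SE 0.11, edgeR adjusted p = 0.00495). BLOC1S1, which encodes a subunit of the lysosome-related BLOC-1 complex, showed −0.14 (SE 0.09, edgeR adjusted p = 0.303).

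RDH11 (ENSG00000072042.13, chromosome 14, 67676801 to 67695814, minus strand) encodes a retinol dehydrogenase of the endoplasmic reticulum that acts on all-trans and cis retinoids. It had 98.9, 92.7 and 95.6 CPM in LmnB1_6 and 110, 128 and 115 CPM in LmnB1_16, against 114, 103 and 107 CPM in mCherry_4 and 116, 116 and 119 CPM in mCherry_3. The libraries of LmnB1_6 lay below the other 9, and LmnB1_16 overlapped both mCherry clones. The constructs differed by −0.07 on the log2 scale (SE 0.08, approximate 95% interval −0.23 to 0.08, edgeR adjusted p = 0.529).

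The clones of LmnB1 did not move RDH11 alike. LmnB1_6 was lower than LmnB1_16 (−0.30 on the log2 scale, SE 0.06, edgeR adjusted p = 0.00115), than mCherry_3 (−0.29, SE 0.06, edgeR adjusted p = 0.000902) and than mCherry_4 (−0.17, SE 0.06, edgeR adjusted p = 0.0372). The last of these calls was lost in 5 of 12 fits that left out 1 library (replicate 2 or 3 of LmnB1_6, replicate 1 or 3 of mCherry_4, or replicate 3 of mCherry_3; log2 fold change −0.13 to −0.18). LmnB1_16 differed from mCherry_4 by 0.12 (SE 0.06, edgeR adjusted p = 0.206) and from mCherry_3 by 0.01 (SE 0.06, edgeR adjusted p = 0.91). Without LmnB1_6 the difference between the constructs was 0.07 (edgeR adjusted p = 0.545), and without LmnB1_16 it was −0.23 and called (edgeR adjusted p = 0.0147).

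LRAT (ENSG00000121207.12, chromosome 4, 154626945 to 154753118, plus strand), which encodes lecithin retinol acyltransferase, was scarce. It had 5, 2 and 6 counts in LmnB1_6 and 23, 18 and 51 counts in LmnB1_16, against 42, 44 and 36 counts in mCherry_4 and 96, 87 and 109 counts in mCherry_3. In CPM these were 0.171 ± 0.0636 in LmnB1_6 and 1.29 ± 0.514 in LmnB1_16, against 1.75 ± 0.199 in mCherry_4 and 3.601 ± 0.460 in mCherry_3 (SD, n = 3 each). LmnB1_6 lay far below every other clone, mCherry_3 lay above every other clone, and LmnB1_16 and mCherry_4 overlapped.

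LRAT fell 3.64-fold between the constructs (log2 fold change −1.86, SE 0.58, edgeR adjusted p = 0.0443). The 13 counts summed over LmnB1_6 carry an exact Poisson interval of 6.92 to 22.2, which covers counting error only, and the fall was 9.71-fold against mCherry_4 (−3.28, SE 0.38, edgeR adjusted p = 3.69e-06) and 19.9-fold against mCherry_3 (−4.32, SE 0.37, edgeR adjusted p = 5.62e-08). LmnB1_16 was lower than mCherry_3 (−1.45, SE 0.28, edgeR adjusted p = 0.000491), whereas against mCherry_4 it gave −0.42 with an approximate 95% interval of −0.99 to 0.16 (edgeR adjusted p = 0.401). Both pairs of clones of the same construct differed as well.

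Between the LmnB1 clones, LRAT was 7.28-fold lower in LmnB1_6 than in LmnB1_16 (−2.86, SE 0.39, edgeR adjusted p = 2.24e-05). Between the mCherry clones, it was 2.05-fold lower in mCherry_4 than in mCherry_3 (−1.04, SE 0.27, edgeR adjusted p = 0.00661). The call between the constructs ended without the clone LmnB1_6 (−1.04, edgeR adjusted p = 0.123) or mCherry_3 (−1.25, edgeR adjusted p = 0.363). With all clones kept, it ended in limma with clone as a random effect (−2.33, SE 0.72, limma adjusted p = 0.136), and without a filter on low counts (−1.86, edgeR adjusted p = 0.0585). It also ended in 9 of 12 fits without 1 library, namely any of LmnB1_6 or mCherry_3, replicate 1 or 2 of LmnB1_16, or replicate 1 of mCherry_4 (−1.64 to −2.02, edgeR adjusted p 0.0504 to 0.0963).

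SERPINF1 (ENSG00000132386.11, chromosome 17, 1761959 to 1777574, plus strand), the gene of PEDF, was also near the limit of detection. It had 32, 29 and 45 counts in LmnB1_6 and 12, 11 and 18 counts in LmnB1_16, against 4, 6 and 4 counts in mCherry_4 and 10, 21 and 12 counts in mCherry_3. In CPM these were 1.43 ± 0.0711 in LmnB1_6 and 0.595 ± 0.0601 in LmnB1_16, against 0.200 ± 0.0439 in mCherry_4 and 0.526 ± 0.199 in mCherry_3 (SD, n = 3 each). LmnB1_6 lay above all other libraries, mCherry_4 below all others, and LmnB1_16 and mCherry_3 overlapped.

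SERPINF1 rose 2.75-fold between the constructs (log2 fold change 1.46, SE 0.42, edgeR adjusted p = 0.0348). LmnB1_6 was 7-fold above mCherry_4 (2.81, SE 0.41, edgeR adjusted p = 3.73e-05) and 2.71-fold above mCherry_3 (1.44, SE 0.35, edgeR adjusted p = 0.00258). LmnB1_16 was 2.93-fold above mCherry_4 (1.55, SE 0.44, edgeR adjusted p = 0.0235), and against mCherry_3 it gave 0.18 with an approximate 95% interval of −0.56 to 0.92 (edgeR adjusted p = 0.737). As for LRAT, clones of the same construct differed.

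SERPINF1 was 2.39-fold higher in LmnB1_6 than in LmnB1_16 (1.26, SE 0.35, edgeR adjusted p = 0.0106) and 2.59-fold lower in mCherry_4 than in mCherry_3 (−1.37, SE 0.44, edgeR adjusted p = 0.0207). The contrast of LmnB1_16 with mCherry_4 lost its call without replicate 1 or 3 of either clone (1.44 to 1.57), and that of the mCherry clones without replicate 1 or 3 of mCherry_4 or replicate 2 of mCherry_3 (−1.02 to −1.30). The call between the constructs ended without the clone LmnB1_6 (0.69, edgeR adjusted p = 0.365) or mCherry_4 (0.94, edgeR adjusted p = 0.144), in limma with clone as a random effect (1.48, SE 0.63, limma adjusted p = 0.272), and without a filter on low counts (1.46, edgeR adjusted p = 0.0555). It ended too in 8 of 12 fits without 1 library, namely any of LmnB1_6 or mCherry_4, or replicate 1 or 3 of mCherry_3 (1.31 to 1.52, edgeR adjusted p 0.054 to 0.0762).

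**Figure D2:**
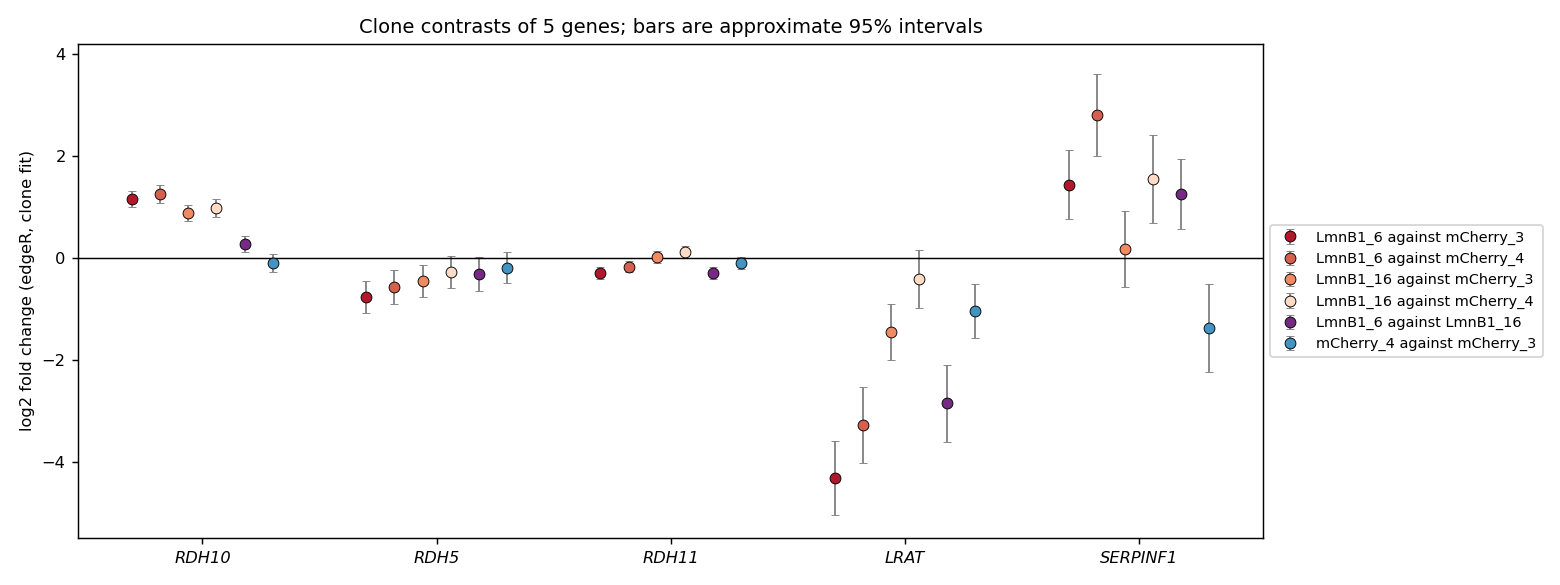
Log2 fold change of each gene in 6 contrasts of clones (edgeR, bars approximate 95% intervals): 4 of an LmnB1 clone against an mCherry clone, 1 between the LmnB1 clones and 1 between the mCherry clones. For RDH10 the 4 first contrasts lie between 0.88 and 1.25, and those within a construct at 0.28 (LmnB1 clones, called) and −0.10 (mCherry clones). For LRAT and SERPINF1 the contrasts within a construct (−2.86 and −1.04, 1.26 and −1.37) are as large as some between constructs.

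Counted over the members, all 5 were called in LmnB1_6 against mCherry_3, where 52.8% of tested genes were, and all 5 in LmnB1_6 against mCherry_4, where 37.2% were. In LmnB1_16 against mCherry_3 the count was 3 of 5, beside 44.4% of tested genes, and in LmnB1_16 against mCherry_4 it was 2 of 5, beside 15.7%. Within the constructs 4 of 5 were called between LmnB1_6 and LmnB1_16 (34.4% of tested genes) and 2 of 5 between mCherry_4 and mCherry_3 (37.4% of tested genes). With so large a share of all genes called in most of these contrasts, the counts alone do not set the members apart. The 4 contrasts share their clones and are not independent of one another.

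Levels per transcript length, which can be compared between genes, put RDH11 first in every clone. Its deposited TPM averaged 64.0 ± 2.92 in LmnB1_6 and 82.2 ± 12.1 in LmnB1_16, against 72.2 ± 3.87 in mCherry_4 and 85.9 ± 3.50 in mCherry_3 (SD, n = 3 each). RDH5 came second in the mCherry clones, at 22.2 ± 4.59 TPM in mCherry_4 and 25.7 ± 1.79 TPM in mCherry_3, with RDH10 next and without overlap at 7.05 ± 1.76 and 7.84 ± 0.806 TPM in the same clones. In LmnB1_16 the order of these 2 genes could not be told (17.8 ± 4.89 TPM for RDH5 and 16.4 ± 1.499 TPM for RDH10), and in LmnB1_6 RDH10 stood just above RDH5 (14.4 to 19.2 TPM for RDH10 and 13.5 to 14.3 TPM for RDH5).

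The 2 lowest places went to LRAT and SERPINF1, and their order changed too. LRAT stood above SERPINF1 without overlap in mCherry_4 (1.52 ± 0.537 and 0.699 ± 0.135 TPM) and mCherry_3 (3.66 ± 0.716 and 1.498 ± 0.396 TPM). The 2 genes overlapped in LmnB1_16 (1.19 ± 0.639 TPM for LRAT and 1.09 ± 0.387 TPM for SERPINF1), and in LmnB1_6 SERPINF1 stood above LRAT (3.05 ± 1.43 and 0.159 ± 0.150 TPM).

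**Figure D3:**
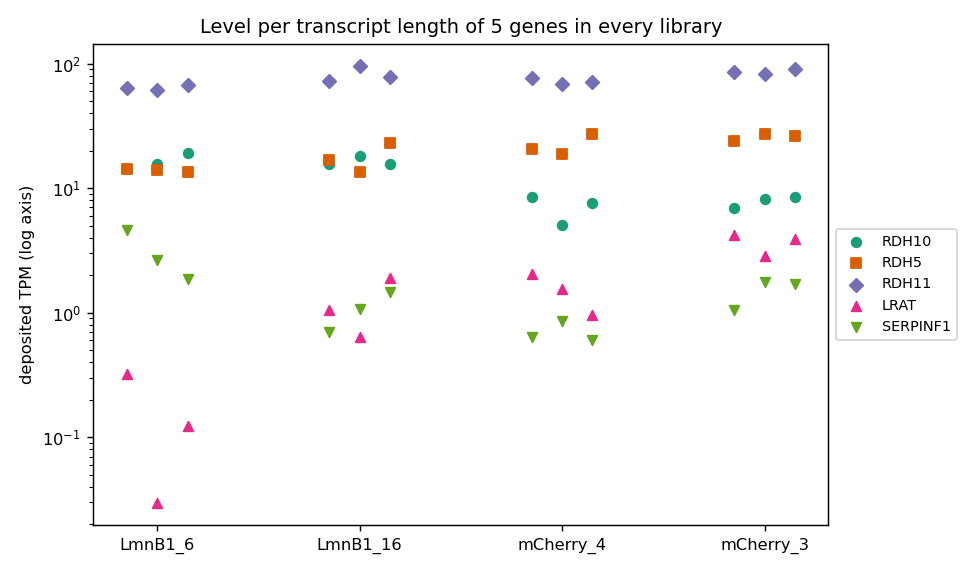
Deposited TPM of the 5 genes in each library (log axis; 3 libraries a clone, LmnB1 clones left of mCherry clones). RDH11 is highest throughout; RDH10 lies among or above the RDH5 values in the LmnB1 clones and below them in the mCherry clones, and LRAT lies below SERPINF1 in LmnB1_6 and above it in the mCherry clones.

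The TPM of SERPINF1 rest on lengths that varied between libraries, since TPM divide by the effective length of the transcripts that were assigned reads. The deposited mean length was exactly 672 bases in all 3 libraries of mCherry_4 and 1 of mCherry_3, which is the length of the annotated transcript ENST00000572517.1, a retained-intron transcript of 2 exons and 1 of 12 annotated for the gene, 8 of them protein coding. Elsewhere the mean length was 682 to 1438 bases in the LmnB1 libraries and 841 to 909 bases in the other mCherry_3 libraries. The counts of SERPINF1 cover all its transcripts, so its count differences against mCherry_4 were not shown to be differences in PEDF-coding RNA. On deposited TPM the difference of SERPINF1 between the constructs was 0.72 on the log2(TPM + 0.1) scale and not called (SE 0.41, limma adjusted p = 0.255), where the count test gave 1.46. The effective length of LRAT likewise ran from 910 to 4633 bases in the LmnB1 libraries and 1324 to 2198 bases in the mCherry libraries. That of RDH10 ran from 2335 to 3256 bases in the LmnB1 libraries and 2403 to 3704 bases in the mCherry libraries. The place of RDH10 just above RDH5 in LmnB1_6 rests on such lengths too.

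**Figure D4:**
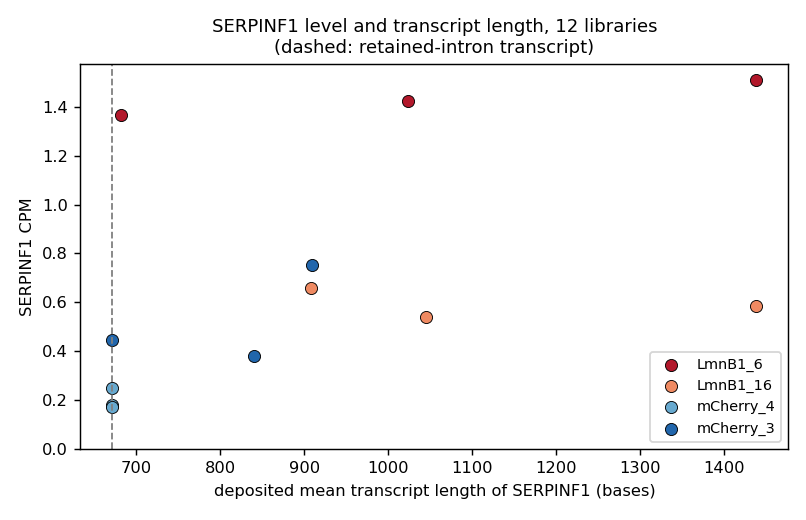
CPM of SERPINF1 against the deposited mean length of its transcripts in bases, for the 12 libraries coloured by clone; the dashed line marks the 672-base retained-intron transcript. All 3 mCherry_4 libraries and 1 mCherry_3 library sit on the line, and the LmnB1_6 libraries are the highest in CPM at any length.

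Transcripts of the rest of the visual cycle were absent or scarce. Of 8 other members none reached the test: RPE65, RGR, RBP3 and RDH8 had 0 counts in all 12 libraries, and RLBP1 (the 11-cis-retinal carrier CRALBP), RRH, ABCA4 and RDH12 were too low. ABCA4, the retinoid flippase, had 26 and 2 counts in LmnB1_6 and LmnB1_16, against 28 and 16 counts in mCherry_4 and mCherry_3. RLBP1 had 17 and 1 counts in LmnB1_6 and LmnB1_16, against 4 and 0 counts in mCherry_4 and mCherry_3.

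Among 14 genes of retinol uptake, binding and esters, 6 were tested, 1 rose and none fell (median log2 fold change −0.05, beside 0.00 over all tested genes). The gene that rose was STRA6, the membrane receptor that takes up retinol from its plasma carrier. STRA6 stood at 15.5 ± 3.44 CPM in LmnB1_6 and 0.997 ± 0.570 CPM in LmnB1_16, against 0.504 ± 0.0815 CPM in mCherry_4 and 0.160 ± 0.0558 CPM in mCherry_3 (SD, n = 3 each; constructs: log2 fold change 4.64, SE 0.93, edgeR adjusted p = 0.00767). LmnB1_6 stood 15.8-fold above LmnB1_16 for STRA6 (edgeR adjusted p = 8.44e-09). LmnB1_16 was 5.96-fold above mCherry_3 (2.58, SE 0.46, edgeR adjusted p = 0.000255) and was not called against mCherry_4 (0.96, SE 0.38, edgeR adjusted p = 0.111), and mCherry_4 was itself 3.07-fold above mCherry_3 (edgeR adjusted p = 0.0213).

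Of 15 other retinol and retinal oxidoreductases, 9 were tested, 1 rose and 1 fell (median −0.17). DHRS7, a short-chain dehydrogenase, fell to 17.7 ± 0.359 and 17.6 ± 1.80 CPM in LmnB1_6 and LmnB1_16, against 23.5 ± 0.417 and 26.8 ± 2.02 CPM in mCherry_4 and mCherry_3 (SD, n = 3 each; log2 fold change −0.51, SE 0.07, edgeR adjusted p = 0.00113), and it was called in all 4 contrasts. AKR1B1, aldose reductase, rose by 0.23 (SE 0.07, edgeR adjusted p = 0.0328), but neither LmnB1 clone was called against mCherry_4 (0.14 and 0.11), and mCherry_4 was above mCherry_3 by 0.23 (edgeR adjusted p = 0.0115). DHRS3, which reduces retinal back to retinol and is known to act in a complex with RDH10, stood at 49.6 and 87.8 CPM in LmnB1_6 and LmnB1_16, against 43.3 and 82.1 CPM in mCherry_4 and mCherry_3 (0.13, SE 0.26, edgeR adjusted p = 0.754). DHRS3 was singled out after its values were seen, as were PMEL and MERTK above and ALDH1A3, AKR1C3, MITF, OTX2 and KDR below.

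Of 11 genes of retinoic acid synthesis, binding and clearance, 5 were tested, none rose and 1 fell (median 0.12). CRABP2, which carries retinoic acid to its nuclear receptors, fell to 8.10 ± 1.12 and 8.98 ± 1.02 CPM in LmnB1_6 and LmnB1_16, against 11.3 ± 1.13 and 24.5 ± 3.14 CPM in mCherry_4 and mCherry_3 (SD, n = 3 each; −1.07, SE 0.25, edgeR adjusted p = 0.0141). The mCherry clones differed by as much for CRABP2 (mCherry_4 against mCherry_3 −1.12, SE 0.13, edgeR adjusted p = 4.27e-06). ALDH1A3, the retinal dehydrogenase that makes retinoic acid, stood at 232 and 228 CPM in LmnB1_6 and LmnB1_16, against 157 and 267 CPM in mCherry_4 and mCherry_3 (0.12, SE 0.16, edgeR adjusted p = 0.624).

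Of 13 retinoic acid receptors and genes known to be induced by retinoic acid, 8 were tested and 1 rose (median 0.01). It was the receptor gene RARB, itself a known target of retinoic acid, at 0.35 on the log2 scale (SE 0.09, edgeR adjusted p = 0.0253). RARB was called in LmnB1_6 against mCherry_4 and mCherry_3 (0.47 and 0.57). In LmnB1_16 it was called against mCherry_3 (0.21, SE 0.07, edgeR adjusted p = 0.0304) but not against mCherry_4 (0.10, SE 0.07, edgeR adjusted p = 0.403).

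**Figure D5:**
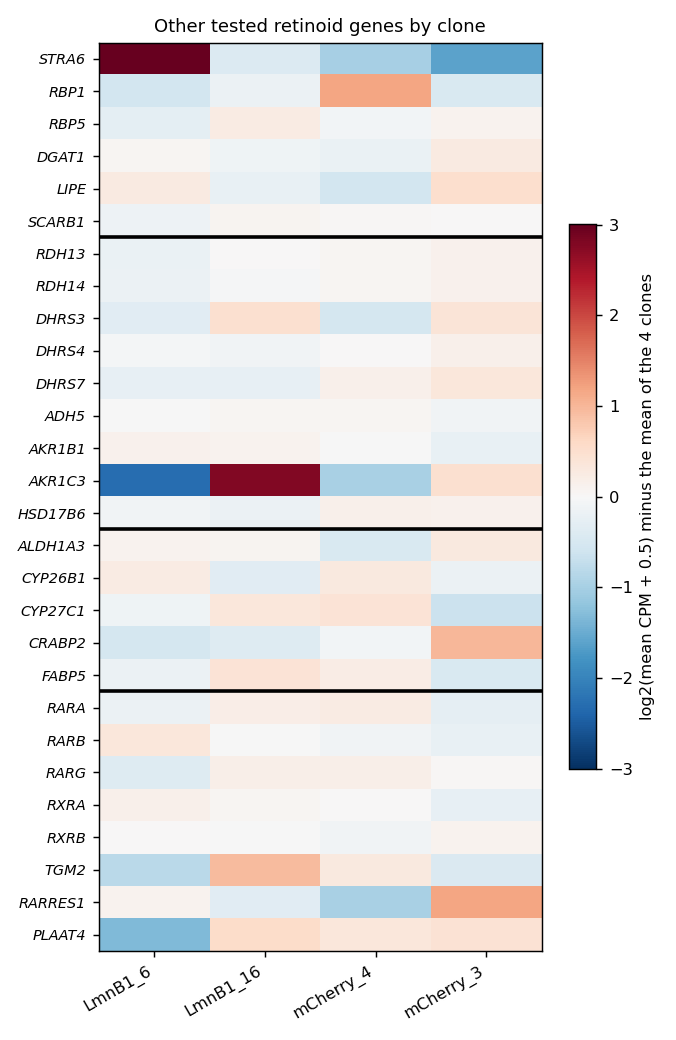
Colour shows log2(mean CPM + 0.5) of a clone minus the mean of the 4 clones for the other tested retinoid genes, in sets from the top: uptake, binding and esters; oxidoreductases; retinoic acid synthesis, binding and clearance; receptors and induced genes. STRA6 is high in LmnB1_6 (15.5 CPM), AKR1C3 is high in LmnB1_16 and low in LmnB1_6 (19.1 and 0.0783 CPM, against 0.950 and 3.50 CPM in mCherry_4 and mCherry_3), and most other genes vary less.

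For PEDF, 6 of 8 receptors and binding partners were tested, of which 1 rose and 2 fell (median −0.07). PNPLA2, a lipase also described as a PEDF receptor, fell by 0.40 (SE 0.10, edgeR adjusted p = 0.0207), but LmnB1_6 and LmnB1_16 were not called against mCherry_4 (−0.14 and −0.17), which was below mCherry_3 by more than that (−0.46, edgeR adjusted p = 1.57e-05). HSPG2, the matrix proteoglycan perlecan, fell by 0.62 (SE 0.11, edgeR adjusted p = 0.00456) and was called in all 4 contrasts. For HSPG2, LmnB1_6 and LmnB1_16 gave −0.31 and −0.47 against mCherry_4, which was itself below mCherry_3 (−0.42, edgeR adjusted p = 0.000461). COL1A1, a chain of collagen I, which PEDF binds, rose by 2.66 (SE 0.63, edgeR adjusted p = 0.0156), with 186 CPM in LmnB1_6 and 20.5 CPM in LmnB1_16, against 17.5 CPM in mCherry_4 and 15.1 CPM in mCherry_3. In LmnB1_16 COL1A1 was called against mCherry_3 (0.45, SE 0.14, edgeR adjusted p = 0.0177) and not against mCherry_4 (0.24, SE 0.14, edgeR adjusted p = 0.319).

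Of 18 other serpins, 10 were tested, 2 rose and 3 fell (median −0.41). SERPINB1, an inhibitor of neutrophil proteases, fell by 1.04 (SE 0.22, edgeR adjusted p = 0.00966) and was called in all 4 contrasts. In LmnB1_16 against mCherry_4 SERPINB1 gave −0.29 (edgeR adjusted p = 0.0349), while mCherry_4 against mCherry_3 gave −1.01 (edgeR adjusted p = 1.38e-07). SERPINH1, the collagen chaperone of the endoplasmic reticulum, rose by 0.33 (SE 0.08, edgeR adjusted p = 0.0147), while mCherry_4 was above mCherry_3 by 0.28 (edgeR adjusted p = 0.00281). Against mCherry_4, SERPINH1 was called in LmnB1_16 (0.23, edgeR adjusted p = 0.0243) and not in LmnB1_6 (0.17, edgeR adjusted p = 0.0566). SERPINE2 also rose (0.82, SE 0.24, edgeR adjusted p = 0.0354) and SERPINI1 fell (−1.81, SE 0.56, edgeR adjusted p = 0.0423). Neither was called the same way in all 4 contrasts. SERPINE2 had 175 and 95.9 CPM in LmnB1_6 and LmnB1_16, against 97.3 and 55.7 CPM in mCherry_4 and mCherry_3. SERPINI1 had 0.490 and 3.21 CPM in LmnB1_6 and LmnB1_16, against 4.10 and 8.86 CPM in mCherry_4 and mCherry_3.

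Of the 16 markers of pigment epithelium 7 were tested, none rose and 2 fell between the constructs (median −0.58): KRT8 by 0.51 (SE 0.13, edgeR adjusted p = 0.019) and KRT18 by 0.58 (SE 0.15, edgeR adjusted p = 0.0215). Neither was called in LmnB1_16 against mCherry_4, and mCherry_4 was below mCherry_3 for both (KRT8 −0.57, KRT18 −0.37). MITF, which in mice is known to regulate retinoid cycle genes of the pigment epithelium such as Rdh5, stood at 0.0590 CPM in LmnB1_6 and 31.3 CPM in LmnB1_16, against 49.0 CPM in mCherry_4 and 58.6 CPM in mCherry_3 (constructs −1.78, SE 1.00, edgeR adjusted p = 0.228), and was called lower in all 4 contrasts. OTX2, another regulator of this epithelium, had 0 counts in LmnB1_6 and stood at 15.5 CPM in LmnB1_16, against 11.1 CPM in mCherry_4 and 12.6 CPM in mCherry_3. The part of these factors in the levels of the members was not tested.

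Markers of other cell types were few and none was called between the constructs: 1 of 8 photoreceptor, 2 of 5 Müller glia, 1 of 4 endothelial and 1 of 4 leukocyte markers were tested. RCVRN, CRX and SAG of the photoreceptor list, SLC1A3 and AQP4 of the Müller glia list and CD3E of the leukocyte list had 0 counts. Summed levels in LmnB1 and in mCherry libraries were 0.176 to 1.48 and 0.252 to 1.54 TPM for photoreceptor markers, and 0.0206 to 0.859 and 0.0396 to 0.5 TPM for endothelial markers. They were 1.26 to 4.69 and 0.977 to 4 TPM for leukocyte markers, which CSF1R led, and 104 to 161 and 103 to 127 TPM for Müller glia markers, which GLUL led. Between clones some were called: KDR, with 0 and 75 counts in LmnB1_6 and LmnB1_16, against 6 and 33 counts in mCherry_4 and mCherry_3, in all 6 contrasts, and GLUL and CSF1R in 4 each. The part of these markers in the levels of the members was not tested. In bulk libraries, fewer cells expressing a gene and less RNA per cell cannot be told apart.

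The genes whose levels followed each member most closely were sought among 11790 protein-coding genes with a mean of at least 1 CPM, by likeness (Pearson's r of log2(CPM + 0.5)) over the 12 libraries. These fall into 4 clones, so r mostly describes the order of the clones. RDH10 was most like ZSCAN18 (r = 0.982), RAB27B (0.979) and TNFSF12 (0.975). Unlike RDH10, ZSCAN18 and TNFSF12 were at or near 0 in the mCherry clones, with 1 and 9 counts in mCherry_4 and 0 each in mCherry_3. RAB27B, a small GTPase of secretion, stood at 27.7 and 19.8 CPM in LmnB1_6 and LmnB1_16, against 9.95 and 8.72 CPM in mCherry_4 and mCherry_3, the same order of the LmnB1 clones over the mCherry clones as RDH10.

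For RDH5 the most like were 3 genes of mitochondrial membrane proteins, MPV17 (0.973), MTX2 (0.956) and SLC25A11 (0.953). For LRAT they were LRP10 (0.983), SH3BP1 (0.982) and PCK2 (0.977), and SH3BP1 had 6.01 and 16.6 CPM in LmnB1_6 and LmnB1_16, against 22.9 and 35.2 CPM in mCherry_4 and mCherry_3, the order of LRAT. SERPINF1 was most like CMTM3 (0.965), RGCC (0.963) and PELI2 (0.963), and RDH11 was most like IFIH1 (0.935), with CHD3 (0.930) also among its closest.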

How the data were processed

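Messenger RNA of 12 libraries was quantified per gene. Per the file headers, the authors deposited for each gene an estimated count, TPM, and the mean and effective length in bases of its transcripts. Tools named in the submitters' processing notes are STAR, Salmon and DESeq2 (no versions), on GRCh38. The sources used here give neither strand nor annotation release. Of the detected genes, 26.5% to 28.1% had counts further than 0.001 from a whole number, so counts were rounded. Of 60708 identifiers, 58426 matched GENCODE 29, which gave positions and transcripts. Genes kept by filterByExpr by clone (minimum count 10, minimum total 15) were tested with edgeR 4.0.16 in R 4.3.3 (TMM factors 0.948 to 1.06, glmQLFTest), with all 12 libraries in 1 fit by construct and 1 by clone. The SE was obtained by dividing the log2 fold change by the root of F, and approximate 95% intervals span 1.96 SE either way. CPM use TMM-scaled totals. Limma 3.58.1 and DESeq2 1.42.0 served as alternatives. The tests were checked on simulated counts. No 2 libraries of a clone agreed within sampling noise (chi-square per degree of freedom at least 3.78). The members and lists were chosen with earlier results of these data known. Named genes are the members, LMNB1, genes over a member, up to 3 called genes per list with the smallest adjusted p at a mean of at least 1 CPM (where none was called, the 2 most abundant) and the 3 genes most like each member. Intervals and limits on counts of 0 cover counting error only. A few genes that this rule takes are not reported here.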

Additional observations from a re-analysis of the deposited data

Results flagged for a closer look

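The 2 clones with the lamin B1 fusion differed from each other in 4 of the 5 genes, by the contrast of LmnB1_6 with LmnB1_16, in which 34.4% of all tested genes were called. The log2 difference was 0.28 for RDH10 (edgeR adjusted p = 0.0143), with 33.3 CPM in LmnB1_6 and 27.5 CPM in LmnB1_16, both above the mCherry clones; without replicate 1 of LmnB1_16 it was 0.22 and not called (edgeR adjusted p = 0.0775). It was −0.30 for RDH11 (edgeR adjusted p = 0.00115), with 95.7 and 118 CPM in the same clones. It was −2.86 for LRAT (edgeR adjusted p = 2.24e-05), with 0.171 and 1.29 CPM. It was 1.26 for SERPINF1 (edgeR adjusted p = 0.0106), with 1.43 and 0.595 CPM. For RDH5 the difference was −0.31 and did not pass the test (edgeR adjusted p = 0.178). The mCherry clones, which carry no fusion, also differed for LRAT (−1.04) and SERPINF1 (−1.37, mCherry_4 against mCherry_3). What makes the clones differ was not tested.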

How the results depend on the processing

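RDH10 kept its direction and call in all alternatives but counts summed per clone. There all 4 called genes lost their call (edgeR adjusted p = 0.778 each) at −0.50 for RDH5, 1.07 for RDH10, −1.81 for LRAT and 1.47 for SERPINF1, leaving 0 members called. Without a filter on low counts LRAT (−1.86, edgeR adjusted p = 0.0585) and SERPINF1 (1.46, edgeR adjusted p = 0.0555) lost their call, leaving 2 members between the constructs, 1 in LmnB1_16 against mCherry_4 and 1 in mCherry_4 against mCherry_3. Limma fitted with a random clone effect called 1 member (RDH5 −0.49, LRAT −2.33, SERPINF1 1.48 not called). On TPM, SERPINF1 was not called (0.72 with a pseudocount of 0.1 with or without the filter, 0.47 with 1), and without the filter LRAT (−2.20, limma adjusted p = 0.0756) was not either, leaving 2 members. Leaving out a clone gave 1 member called without LmnB1_6 (RDH5 −0.37, LRAT −1.04, SERPINF1 0.69; RDH11 turned to 0.07), 2 without mCherry_3 (RDH5 −0.41, LRAT −1.25), SERPINF1 at 0.94 without mCherry_4 and RDH11 called at −0.23 without LmnB1_16. Leaving out each library in turn gave −0.61 to −0.47 for RDH5, −2.43 to −1.64 for LRAT and 1.31 to 1.81 for SERPINF1, and 1 to 4 members called between the constructs. It gave 3 to 5 members called in LmnB1_6 against mCherry_4, 2 to 3 in LmnB1_16 against mCherry_3, 1 to 2 in LmnB1_16 against mCherry_4, 3 to 5 in LmnB1_6 against LmnB1_16 and 1 to 2 in mCherry_4 against mCherry_3. It turned RDH11 in LmnB1_16 against mCherry_3 to −0.05 (range to 0.06; without LmnB1_16 replicate 2) and SERPINF1 in the same contrast to −0.00 (range to 0.53; without mCherry_3 replicate 1). Samples with the same replicate number deviated together weakly at most (correlations −0.08 to 0.25 over 18 pairs, median 0.05). The median was −0.02 for pairs with different numbers, and 7 of 12 libraries were closest to their own number. With the replicate block LRAT (−1.92, edgeR adjusted p = 0.0732) and SERPINF1 (1.50, edgeR adjusted p = 0.0605) were not called, leaving 2 members. Over all genes 2743 were called between the constructs, 1648 with the replicate block, 163 in limma with clone as a random effect, 0 summed per clone, 1044 to 1684 on TPM, and 647 (without mCherry_3) to 4958 (without mCherry_4) with a clone left out. Without a filter on low counts 1897 were called, and 1392 to 3078 with each library left out in turn. For the clone contrasts, calls over all genes were counted in the main fit only. DESeq2, as a test or for size factors, changed no call of a member between the constructs. Depth limits LRAT and SERPINF1 most, with 2 to 109 and 4 to 45 counts a library.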
